A study of Mus musculus with 2 samples.

Results

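The secreted synapse organizers described here are 10 mouse genes of 3 families, the C1q-like genes C1ql1, C1ql2 and C1ql3, the cerebellins Cbln1, Cbln2 and Cbln4, and the leucine-rich glioma-inactivated genes Lgi1, Lgi2, Lgi3 and Lgi4. They were taken by gene symbol, as every non-control probe that carried one of these names on both arrays, which gave 12 of the 55681 probes of the array and 10 of its 22340 named genes. RNA came from dissociated hippocampal cultures of embryonic day 16.5 ICR mice, grown with 5.5% serum to 12 days in vitro, to which 5 µM Ara-C had been added 2 days after plating against dividing glia. The control group was 1 such culture sample, and the TTX group was 1 sample kept for 2 days in tetrodotoxin (TTX), which blocks voltage-gated sodium channels and with them action potentials. The labels give the TTX dose both as 2 µM (design text) and as 2 mM (source name), a conflict the data do not settle.

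Each group had 1 array (Agilent, 1 colour, Cy3), so no difference had a replicate check, no test between the conditions was possible, and precision is limited by that number. The share of spots well above background was 54.2% for control and 52.2% for TTX. A gene was measured where its probe was well above background on both arrays, and 14114 genes were. Their median log2 difference, TTX minus control, was 0.01, and 48.7% lay below 0. A size rule of 2-fold was used in place of a test, and by it 474 genes (3.36%) were lower and 293 (2.08%) higher in the TTX culture.

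All 3 families encode proteins that neurons or glia release into the cleft or the matrix. Several of them tie presynaptic to postsynaptic receptors, while Lgi4 is best known from peripheral nerve. C1QL proteins and cerebellins share a globular C1q domain; C1QL proteins bind the adhesion receptor Adgrb3 (also called Bai3) and neurexins, and cerebellins bridge neurexins to the delta glutamate receptors. LGI proteins carry leucine-rich and epitempin repeats and bind transmembrane ADAM proteins without protease activity, and LGI1 is known from inherited lateral temporal lobe epilepsy and from autoimmune limbic encephalitis in people. In the hippocampus C1ql2 and C1ql3 are known from the mossy fibres of dentate granule cells, where they gather kainate receptors.

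Each probe was a 60-base oligonucleotide, and 3 of them are shown, those of Lgi2, C1ql1 and C1ql2, since they read genes of the family that was lower in TTX and of the family that was slightly higher. They are given 5′ to 3′ as in the files, with mm9 coordinates of the probe. No base is set in capitals.
Lgi2 (chr5:52929239-52929298, minus strand): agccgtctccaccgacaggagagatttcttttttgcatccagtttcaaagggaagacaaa
C1ql1 (chr11:102801107-102801166, minus strand): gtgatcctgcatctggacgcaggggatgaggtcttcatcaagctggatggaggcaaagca
C1ql2 (chr1:122238262-122238321, plus strand): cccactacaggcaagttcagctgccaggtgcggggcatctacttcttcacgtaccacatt
The longest run of bases that the probes of any 2 different members had in common was 10 of 60, and each of the 11 probes compared, all but that of Cbln2, was the only one on the array with its sequence.

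In the LGI family all 4 genes had lower signals in the TTX culture, and 3 of them, Lgi4, Lgi2 and Lgi1, passed the 2-fold rule. In the C1QL family all 3 genes were slightly higher and none passed it. The cerebellins were divided, with Cbln1 more than 4-fold higher, Cbln2 little different, and Cbln4 above background on the control array only. Over the 10 genes, 3 were at least 2-fold lower and 1 at least 2-fold higher, beside shares of 3.36% and 2.08% among all measured genes. The median of the 9 measured genes was -0.15, or -0.26 over 10 with Cbln4 at its bound, against 0.01 for all genes. In bulk RNA such as this, fewer cells of a type and less RNA per cell cannot be told apart.

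**Figure D1:**
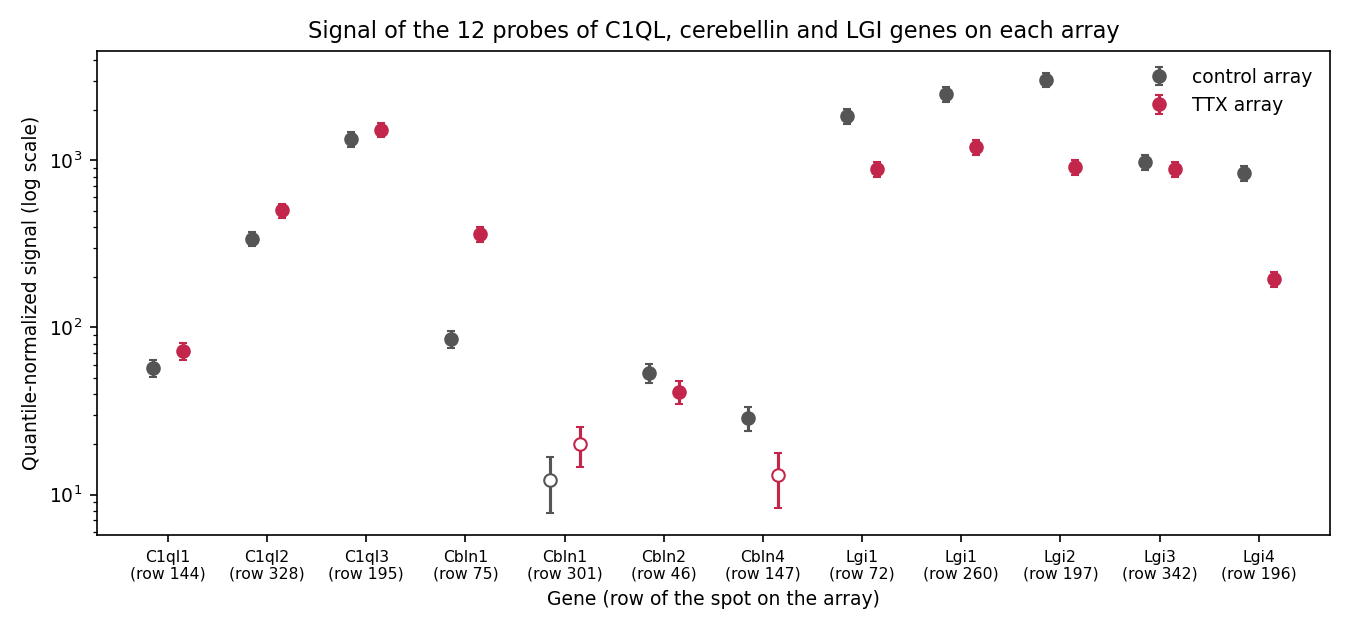
Quantile-normalized signal (log scale) of the 12 probes of the 10 genes on both arrays. Each point is 1 spot, bars are the Feature Extraction error, and open circles are spots not well above background. The LGI points lie lower on the TTX array except for a small gap at Lgi3, and Cbln1 at row 75 lies higher.

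Lgi4 is a secreted ligand best known from the mouse peripheral nerve, where it comes from Schwann cells and binds axonal ADAM22 to allow myelination. Its probe (chr7:31855879-31855938, mm9, plus strand) had a signal of 836 in control and 195 in TTX. The log2 difference was -2.10 with a Feature Extraction error of 0.21, a 4.29-fold lower signal, and 75 of the 14114 measured genes (0.531%), Lgi4 included, were as low or lower. That error is the scanner software's own estimate for 1 spot on each array and leaves out any difference between cultures, RNA samples and labelling.

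Lgi2, a brain-expressed LGI gene whose truncation causes a juvenile epilepsy in dogs, had a signal of 3039 in control and 909 in TTX. The log2 difference was -1.74 (error 0.20), a 3.34-fold lower signal, with 123 genes (0.871%) as low or lower. The Lgi2 spot was among the brightest 20% of control signals, the band in which repeat spots of a probe varied least, with a pooled SD of 0.06 in their log2 difference.

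Lgi1, the epilepsy gene whose protein links ADAM22 and ADAM23 across the cleft and holds AMPA receptors and potassium channels at the synapse, was read by 2 probes. The brighter one gave 2497 in control and 1199 in TTX, and the other (chr19:38382319-38382378, mm9, plus strand) gave 1841 and 889. Their log2 differences were -1.06 and -1.05, each with an error of 0.20, so that probes in rows 260 and 72 of the array gave nearly the same value. Lgi1 passed the 2-fold rule narrowly, at 2.08-fold lower, with 423 genes (2.997%) as low or lower.

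Lgi3, a relative of LGI1 in brain, was the exception of its family. Its probe (chr14:70937619-70937678, mm9, plus strand) gave 979 in control and 884 in TTX, and the log2 difference of -0.15 was within its error of 0.20. The gaps between the differences of Lgi3 and those of Lgi1, Lgi2 and Lgi4 were 0.91, 1.59 and 1.95, which are 3.16, 5.52 and 6.72 times the Feature Extraction error of each gap. That error was 0.20 or 0.21 for each LGI gene whatever its signal, so such ratios mostly rescale the gaps. They do not measure a spread between cultures. The gap between Lgi2 and Lgi4 was 0.36, or 1.24 times its error, and these neighbours in the order could not be told apart on that error. Repeat spots varied less, with a pooled SD of 0.06 in the signal band of Lgi2 and 0.12 in that of Lgi4. Those SDs also leave out any difference between cultures. The other gaps to Lgi1 were 0.68 from Lgi2 and 1.04 from Lgi4, or 2.37 and 3.59 times the error.

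**Figure D2:**
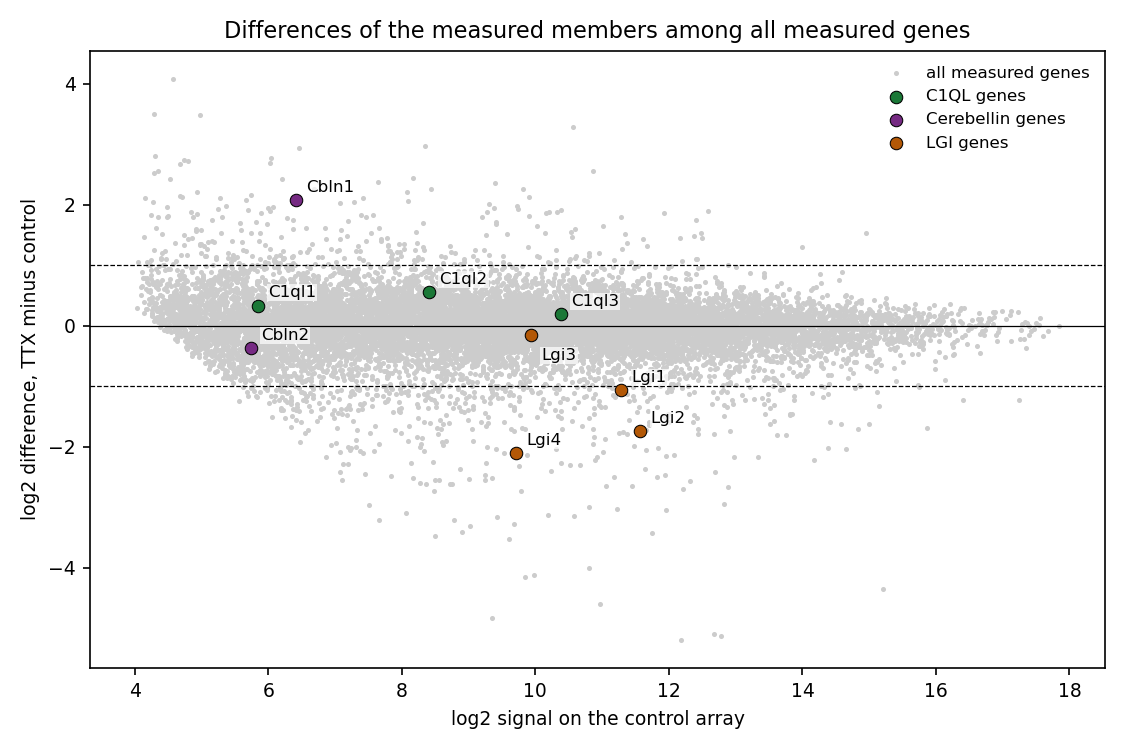
log2 difference, TTX minus control, against log2 signal on the control array for all 14114 measured genes (grey) and the 9 measured members (coloured by family). Dashed lines mark 2-fold. Lgi1, Lgi2 and Lgi4 lie below the lower line, Cbln1 lies above the upper line, and the other 5 lie between them.

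Among the cerebellins, Cbln1 is best known as the protein that cerebellar granule cells release to join their parallel fibres to Purkinje cells. Its measured probe (chr8:89992776-89992835, mm9, minus strand) gave 85.2 in control and 361 in TTX. The log2 difference was 2.08 (error 0.22), a 4.23-fold higher signal, and 34 genes (0.241%) were as high or higher. A further Cbln1 probe (chr8:89992304-89992363, mm9, minus strand) was not well above background on either array, with signals of 12.2 and 20.1, and gives no second measure of the gene. The Cbln1 value therefore rests on 1 spot.

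That spot lies in row 75 of 384. Among probes whose control signal was within 0.5 log2 of that of Cbln1, 63 of 1819 (3.46%) in rows 1 to 192 passed 2-fold upward in TTX, against 43 of 1876 (2.29%) in rows 193 to 384. At 4-fold the counts were 5 and 4. Within 24 rows of the spot 14 of 478 such probes (2.93%) were at least 2-fold higher and 14 (2.93%) at least 2-fold lower, beside 2.87% and 4.01% over all rows, and 3 (0.628%) were at least 4-fold higher, Cbln1 among them. With differences centred on the median of probes in the same block of 48 rows and the same band of signal, Cbln1 stood at 2.07. With normexp, a background correction that pulls dim probes together through its offset, it stood at 1.47.

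**Figure D3:**
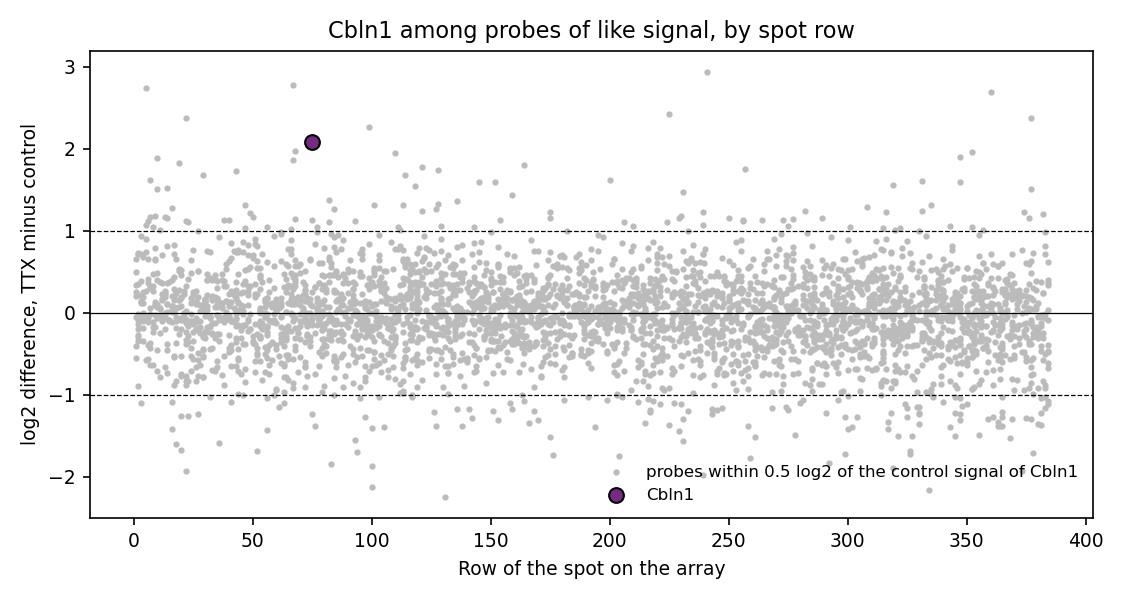
log2 difference, TTX minus control, by row of the spot on the array for probes within 0.5 log2 of the control signal of Cbln1 (grey) and for Cbln1 (purple). Dashed lines mark 2-fold. Cbln1 lies at 2.08 in row 75, where few probes of like signal are as high.

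Cbln2, which joins neurexins to the delta receptor encoded by Grid1, was dim on both arrays, with signals of 53.2 in control and 41.2 in TTX. The log2 difference of -0.37 (error 0.29) was larger than its Feature Extraction error and close to the pooled SD of 0.31 for repeat spots in the lowest 20% of signals. The gap between Cbln1 and Cbln2 was 2.45, or 6.77 times its error. The Cbln2 spot was in row 46. Of 451 probes of like signal within 24 rows, 33 (7.32%) were at least 2-fold higher in TTX and 8 (1.77%) at least 2-fold lower. Their median was -0.01. Over the processing alternatives Cbln2 ran from -0.50, with centring on row block and signal band, to -0.12 with normexp.

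Cbln4, a cerebellin of somatostatin interneurons that binds neurexins and, in mouse, the netrin receptor encoded by Dcc, had a signal of 28.7 in control. In TTX its spot (chr2:171862336-171862395, mm9, minus strand) was not well above background, with a signal of 13.0. Set against 19.7, the dimmest level that passed as well above background on the TTX array, Cbln4 was at least 1.46-fold lower in TTX, which is short of 2-fold. The bound holds for that level and is not strict, since 759 of the 27128 probes not well above background there (2.80%) had signals above it. With normexp the measured log2 difference of Cbln4 was only -0.27, a smaller gap than the bound.

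The C1QL genes differed less between the cultures. C1ql2 had signals of 339.6 in control and 501 in TTX, a log2 difference of 0.56 (error 0.21), and 1165 genes (8.25%) were as high or higher. C1ql1, best known from the climbing fibres of the cerebellum, had signals of 57.4 and 72.4, a log2 difference of 0.33 (error 0.23). Its spot was in the lowest 20% of control signals, where the pooled SD for repeat spots was 0.31, close to that difference. C1ql3 (chr2:12923549-12923608, mm9, minus strand) had signals of 1334 and 1524, a log2 difference of 0.19 within its error of 0.20. None of the 3 gaps between C1QL genes was more than 1.28 times its Feature Extraction error, so their differences could not be ordered on that error. Repeat spots varied less in the middle 60% of signals, the band of C1ql2 and C1ql3, with a pooled SD of 0.12. The gap between those 2 genes was 0.37.

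All 3 C1QL genes stayed above 0 and all 4 LGI genes below 0 under each of 6 settings of scaling and background correction, the reported one included. The authors' deposited values, also among the 6, are nearly the same as those reported. Scaling by a factor per array shifts all genes alike, so large differences could hardly change sign. C1ql3 came closest to 0, at 0.03 with scaling on the spike-in probes. Over these settings Lgi1 ranged from -1.21 to -1.06, Lgi2 from -1.90 to -1.71, Lgi3 from -0.28 to -0.15 and Lgi4 from -2.17 to -1.72.

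**Figure D4:**
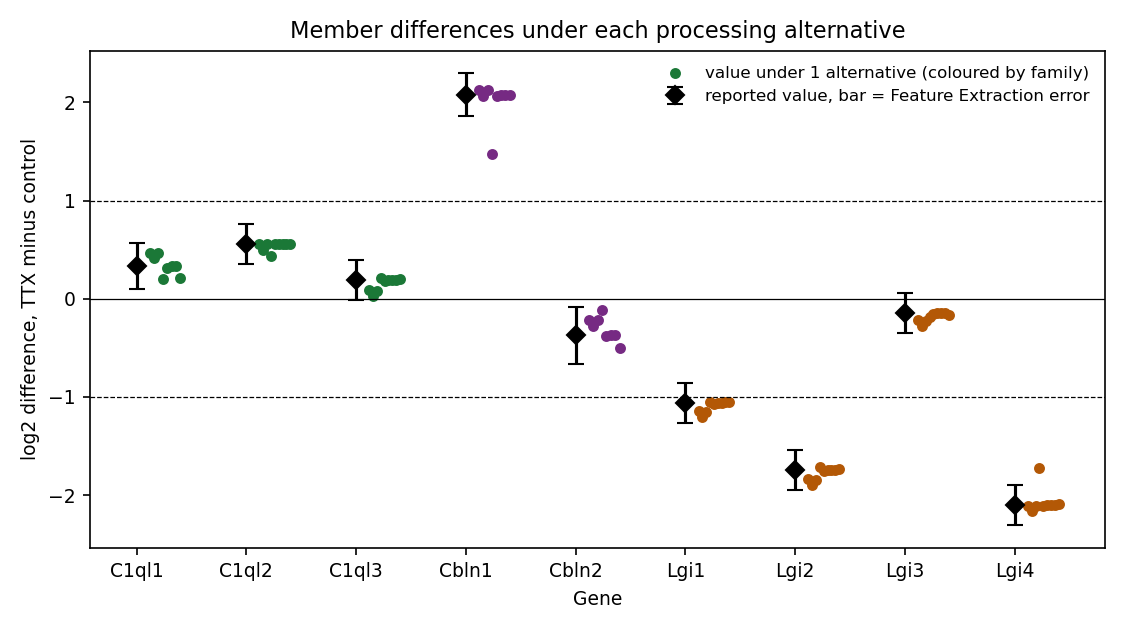
log2 difference, TTX minus control, of the 9 measured members as reported (black diamonds, bars are the Feature Extraction error) and under each processing alternative (coloured dots). Dashed lines mark 2-fold. Lgi1, Lgi2 and Lgi4 stay below -1 and Cbln1 above 1 wherever they were measured, and the lowest Cbln1 dot, at 1.47, is normexp background correction.

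The receptors and partners of the LGI proteins leaned lower. Of 9 genes, all measured, 7 were below 0 and the median was -0.39, beside 48.7% of all genes below 0 and a median of 0.01. General neuron markers, with 5 of 9 below 0, had a median of -0.29, so a lean below 0 was not particular to these partners. Adam23, the presynaptic receptor of LGI1, had -1.03 at its brightest probe and -0.93 at the other, with signals of 2268 and 1111, and was the only partner to pass 2-fold. It fell just short of 2-fold with normexp and with the mean over its probes, at -0.98 in both. The potassium channel subunits Kcna1 (-0.58) and Kcna2 (-0.47), which LGI1 complexes hold in the axon, and the AMPA receptor partner stargazin (Cacng2, -0.39) were lower by less. So were the scaffold PSD-95 (Dlg4, -0.24) and the Nogo receptor (Rtn4r, -0.29). The probes of some partners went both ways. Adam11, another ADAM receptor, had -0.65 at its brightest probe and 0.14 at the other, and the postsynaptic receptor Adam22 had 0.21 and -0.30. The scaffold Dlg1 was at 0.31, with 3 probes between -0.29 and 0.31.

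None of the receptors of the other families passed 2-fold. Of the C1QL partners, Adgrb3 was at -0.06 (signals of 2602 and 2489), the kainate receptor subunit Grik4 at -0.23, and the kainate receptor partner Neto1 at 0.25 and 0.36 by its 2 probes. The kainate receptor subunit Grik2 was at 0.25 at its brightest probe, with 3 probes between 0.25 and 0.60. Nrxn3, a neurexin that binds both C1QL proteins and cerebellins, had -0.51 at its brightest probe, with 6 probes between -0.58 and -0.10. Among the cerebellin receptors Nrxn2 was at 0.12 (0.20 at its other probe) and Neo1 at 0.12, values that changed sign under at least 1 scaling. Dcc was at 0.20 (0.35 at its other probe) and Grid1 at -0.19. Of 18 receptors and partners, all measured, 1 was at least 2-fold lower and none higher, beside the 3.36% and 2.08% of all genes.

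Other genes with a C1q domain gave little more. The complement subunits C1qa, C1qb and C1qc, made by microglia, were at 0.37, 0.39 and 0.60, from control signals between 64.3 and 76.7. The neural relatives C1ql4 and Cbln3, the inner ear gene Otol1 and the adipose hormone gene Adipoq were not well above background on either array.

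**Figure D5:**
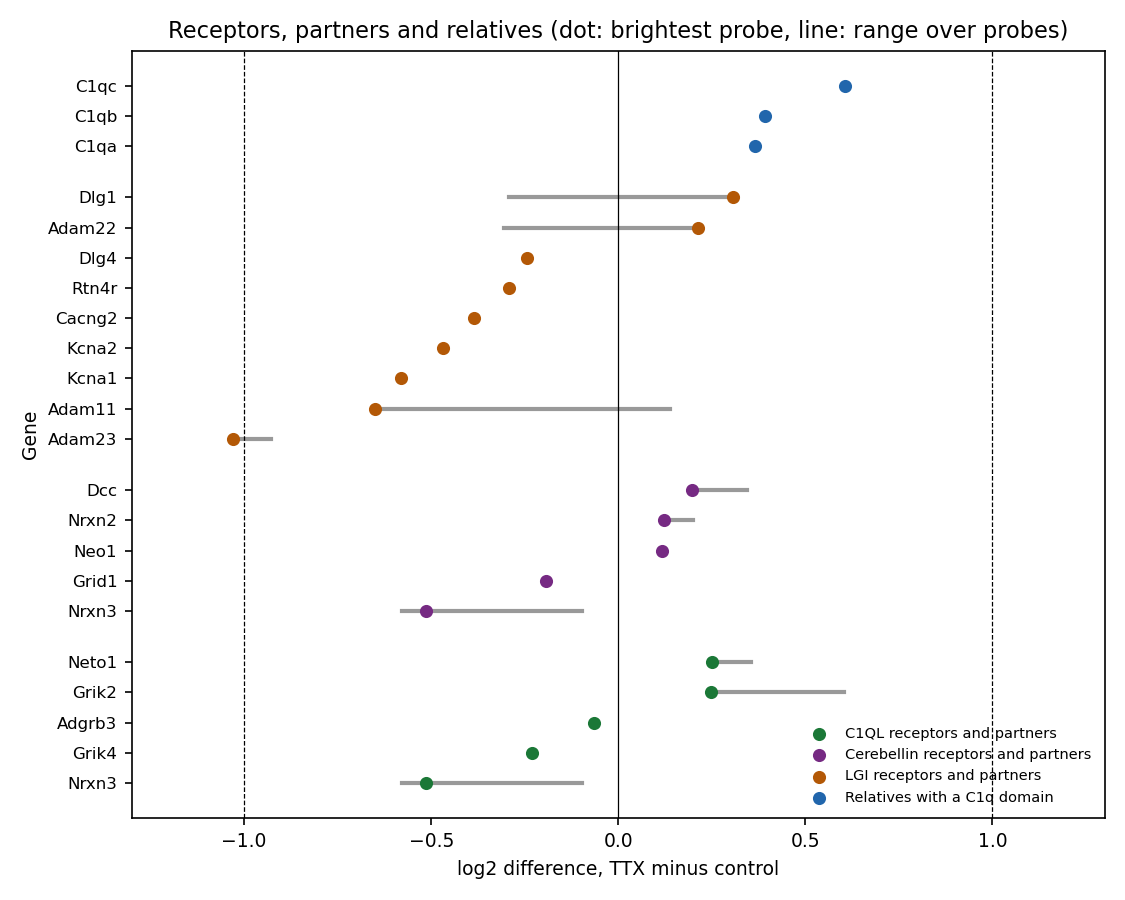
log2 difference, TTX minus control, of measured receptors, partners and C1q relatives, grouped by list. Dots are the brightest measured probe, grey lines the range over a gene's measured probes, dashed lines 2-fold. Adam23 is the only dot past 2-fold, and 7 of 9 LGI partners lie below 0.

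The genes beside the members on their chromosomes were compared too, by RefSeq order in assembly GRCm38.p6, a comparison chosen after the values of the members were seen. Of 22 protein-coding neighbours, 15 were measured and none was at least 2-fold lower or higher, beside 3.36% and 2.08% of all measured genes. At such shares few of 15 genes would pass. The differences of the measured neighbours ran from -0.91, at Hpn beside Lgi4, to 0.40, at Reep4 beside Lgi3. Fxyd3, which overlaps Lgi4 in that assembly, and Pter, which overlaps C1ql3, were not well above background on both arrays.

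Upstream sequence was at hand for 5 members, C1ql2, C1ql3, Cbln4, Lgi1 and Lgi2, and is shown for the 2 of them that were at least 2-fold lower. Each line gives the 250 bases before the RefSeq start site in GRCm38.p6, 5′ to 3′ along the gene.
Lgi1 (chr19:38264437-38264686, plus strand): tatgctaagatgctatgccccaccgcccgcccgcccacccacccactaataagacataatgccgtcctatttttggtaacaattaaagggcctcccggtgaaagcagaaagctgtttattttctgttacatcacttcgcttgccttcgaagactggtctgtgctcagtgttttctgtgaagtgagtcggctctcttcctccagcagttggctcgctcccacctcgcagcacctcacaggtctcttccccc
Lgi2 (chr5:52566307-52566556, minus strand): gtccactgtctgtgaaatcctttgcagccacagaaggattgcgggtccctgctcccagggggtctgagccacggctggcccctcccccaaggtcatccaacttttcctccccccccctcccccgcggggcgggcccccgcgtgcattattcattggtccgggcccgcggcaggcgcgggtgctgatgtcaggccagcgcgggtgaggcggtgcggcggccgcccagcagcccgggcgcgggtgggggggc
The Lgi2 window was 72.4% G and C with 21 CpG pairs and the Lgi1 window 52.4% with 10, against a median of 52.4% over 32851 promoters. On both strands of the windows, taken with 50 further bases past the start, neither held the cAMP response element TGACGTCA (in 1.79% of all promoters), the AP-1 site TGAGTCA (5.20%), the EGR site GCGTGGGCG (0.612%) or the serum response element (1.63%). The core TGACG of the cAMP response element, which overlaps the full element, was found in 20.8% of all promoters and, of the 5 members, in Cbln4 alone. These are matches of letters in 1 window and say nothing of a factor's binding.

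Markers of the cells in the dish differed by cell type. All 9 general neuron markers were well above background on both arrays, with summed signals of 195268 in control and 185687 in TTX, a median of -0.29 and 1 member, Nefm (-1.20), past 2-fold; Nefh was at -0.98. Pyramidal cell markers (7 of 8 measured) had a median of -0.33 and summed signals of 13195 and 7905.5, with Bok (-2.22) and Neurod6 (-1.10) lowest. These 2 genes weigh heavily on the sums, with signals of 7483 and 3487 for Neurod6 and 1905 and 408 for Bok. Dentate granule cell markers (5 of 6 measured) had a median of 0.48 and sums of 2936 and 4225, but were divided. Of these, 3 were above 0, Prox1 at 1.02 and Neurod1 at 0.69 among them, and 2 were below 0. Interneuron markers (14 of 14) had a median of -0.11 and sums of 90620.4 and 66524, with Nos1 at 2.17 and Npy at -1.59. Of them 9 were below 0 and 5 above. Npy, with signals of 21792 and 7239, weighs heavily on the sums. Cajal-Retzius cell markers (7 of 7) had a median of -0.18, with 5 below 0 and 2 above, Calb2 (2.27) and Nhlh2 (0.89). Their sums were 1579 and 5061, the latter mostly Calb2.

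Glial markers stand beside Lgi4, which glia also make. Astrocyte markers (10 of 11 measured) had a median of 0.32 and sums of 52667 and 63572, with Gfap at 0.78 and Slc1a2 at -1.05. Oligodendrocyte lineage markers (6 of 12 measured) had a median of 0.20 and sums of 2120 and 2515, with Olig1 at 0.78 and Cspg4 at 0.53, and the defining markers Sox10, Olig2 and Pdgfra, with Enpp6 and Gpr17, were not well above background on either array. A further gene of that list, Mag, was above background on the control array only, with signals of 20.6 in control and 7.2 in TTX. Whether the glial markers bear on the value of Lgi4 was not tested. Microglia markers (9 of 11) had a median of 0.37, with Laptm5 at 0.90 and C1qc at 0.60. Fibroblast markers (5 of 6) had a median of 0.17, with Dcn at 0.33 and Col1a1 at 0.29. Endothelial markers (3 of 5) had a median of -0.21, with Kdr at -0.24 and Pecam1 at -0.21. The part of cell make-up in the differences of the members was not tested.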

How the data were processed

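Each scanner file deposited by the authors gives linear spot intensity. Its processed signal is background-subtracted by Agilent Feature Extraction, version 10.7.1.1 per the file headers and 9.5.1.1 per the submitters' processing notes. The deposited value table also holds linear intensity, quantile normalized per the series' design text, and over 27398 measured probes its differences had a correlation of 0.99989 with those used here.

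Outlier spots (131 on control, 170 on TTX, of 59305) were dropped, and no spot was saturated. Quantile normalization between the arrays was run on the processed signal with limma 3.58.1 in R 4.3.3, and the values were converted to log2, with a mean over repeat spots, and summarised in Python 3.11.15. Measured probes had a share of at least 0.5 of their spots well above background on each array. The brightest measured probe stood for its gene. A gene above background on 1 array only received a bound, taken from the dim spot or, if higher, from the dimmest level called well above background there. RefSeq (GRCm38.p6) gave names to 31399 probes, 27235 through their main accession, 90 through another, 3523 through the symbol and 551 through an older symbol, and gave the upstream sequences. The exon annotation of mm9 was not used here.

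The members, gene lists and alternatives were chosen with earlier results of these data known. Every member, partner, receptor and relative was to be named, apart from some items that are not reported here and are left out of the list counts, and of each marker list the 2 genes with the largest differences. The quantile normalization and the step from probes to genes were tested on simulated data. Calls above background on the TTX array, bounds, normexp and centring by row were not part of that check.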

Additional observations from a re-analysis of the deposited data

How the results depend on the processing

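The reported setting was set beside 6 alternatives of scaling, background or position, here with centring by row and without the reported setting. Of 54 values of single members under these alternatives, 2 moved by more than the Feature Extraction error, both with normexp background correction (Cbln1 to 1.47, Lgi4 to -1.72). No member changed sign. The filters and the mean over probes could not change the 8 members with 1 measured probe, other than by dropping them. The median of the members was -0.60 with the stricter filter on dim probes, which leaves 6 of them, and that filter leaves no member at least 2-fold higher (0), since Cbln1 is dropped. With no filter Cbln4 also passed 2-fold. The count of receptors and partners lower, 1 as reported, was 0 with normexp and 0 with the mean over probes (Adam23 lost in each), 2 at 1.5-fold and 0 at 3-fold. At 3-fold 2 members were lower and 1 higher. The share of all genes was taken at 2-fold only, so the counts at 1.5-fold and 3-fold have no share to be read against. Over all genes, those at least 2-fold lower and higher numbered 301 and 146 of 14114 with normexp. They numbered 310 and 159 of 11523 with the stricter filter, and 1374 and 1075 of 22340 with no filter. No paired analysis was possible because each group had 1 array and the labels give no replicate numbers. Repeat spots of 1 probe gave the precision within an array (pooled SD of 0.15 over 284 probes). A dim probe such as that of C1ql1, Cbln2 or Cbln4 cannot show a small difference.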
